A study of Mus musculus with 6 samples.

Results

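Itln1, Mmp7, Lyz1, Reg4, Pla2g2a, Ang4 and Kit are genes of Paneth-like and deep crypt secretory cells, and their RNA was compared between colonic epithelium of miR-31 knockout and wild-type mice. Their members are all non-control array probes whose transcript accession belongs to 1 of these 7 mouse genes in the RefSeq gene table, with every such probe kept. Of the 56605 non-control probes, 7 met this rule, and they cover 6 of the 7 genes, out of 23462 genes with a named probe. Mmp7 has a pair of probes and Itln1, Lyz1, Reg4, Ang4 and Kit have 1 each. No probe was assigned to Pla2g2a, a secreted phospholipase A2 gene that the RefSeq table lists as a transcribed pseudogene on chromosome 4, so it has no value here.

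The samples were 3 miR-31 knockout and 3 wild-type male mice, with 1 Agilent one-colour array for each mouse. The design text states that epithelium was collected by flow separation, and the labels state that RNA was extracted with TRIzol. Strain, age, the way the miR-31 gene was inactivated, and the gate of the flow separation are not given in the sources used here. No label says that mice were littermates, and in bulk RNA fewer cells of a type and less RNA per cell cannot be told apart.

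Paneth cells sit at the base of small intestinal crypts and release antimicrobial proteins into the lumen. The normal mouse colon largely lacks them, and deep crypt secretory cells, which carry Reg4 and Kit, lie between the crypt base stem cells there and supply them with niche signals. MicroRNAs such as miR-31 pair through their seed with target transcripts and lower their stability or translation. The arms of the microRNA that the knockout mice lack are shown with the seed, bases 2 to 8, in capitals. They are RefSeq sequences (GRCm38.p6, chr4:88910614-88910635 and chr4:88910577-88910599, minus strand). No probe was assigned to the miR-31 gene, so its loss was not measured on these arrays.
mmu-miR-31-5p: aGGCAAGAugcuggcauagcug
mmu-miR-31-3p: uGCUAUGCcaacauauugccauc

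All levels below are log2 intensities relative to the 75th percentile of intensity on the same array, and a difference is knockout minus wild-type on that scale. Arrays are given as knockout 1 to 3 and wild-type 1 to 3, with n = 3 in each group unless stated. Each array had 66.6% to 75.6% of its probes well above background, and the 7 member probes were well above it on all 6. All 12 listed markers of colonic epithelium, among them Epcam, Krt8 and Car1, were above background on at least 3 arrays. Their mean level was 3.32 to 3.50 on the knockout arrays and 3.40 to 3.56 on the wild-type arrays. Markers of other cells were detected as well, 11 of 11 for lymphocytes and 8 of 10 for fibroblasts and smooth muscle. The mean levels of these lists lay between -3.62 and -3.04. The smooth muscle gene Acta2, marked on all 6 arrays, nonetheless averaged 3.55 in knockout and 3.63 in wild-type tissue. Other smooth muscle genes of the list were dimmer. In knockout and wild-type tissue Tagln averaged 0.24 and 0.32, Myh11 -4.79 and -4.32, and Des -6.72 and -6.41. The purity of the epithelium was not tested. All knockout arrays lay in 1 row of the slide and all wild-type arrays in the other, so slide row and genotype cannot be told apart.

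No member probe passed the threshold of 0.05 on the adjusted p (limma, Benjamini-Hochberg over all tested probes). The members nonetheless divided into those whose knockout arrays all lay above the wild-type arrays, Itln1 and both Mmp7 probes, and those whose groups overlapped, Reg4, Ang4, Lyz1 and Kit. The extraction software had marked the Reg4, Ang4 and Kit spots as outliers or non-uniform on most arrays. Leaving out marked spots gave a test for 4 member probes, Itln1, Lyz1 and both of Mmp7, and keeping them gave a test for all 7. With marked spots left out, 0 of 4 were called, against 0.208% of the 33231 probes tested. At an unadjusted p under 0.05, 3 of the 4 were higher in knockout tissue, against 3.27% of all tested probes, and in 3 of the 4 all knockout arrays lay above all wild-type arrays, against 5.75%. With marked spots kept, 0 of 7 were called, against 0.178% of 41015 probes. Of those 7, 3 were higher at an unadjusted p under 0.05, against 3.31%, and 3 had all knockout arrays above, against 4.88%. Each set of 3 is Itln1 and the 2 probes of 1 gene, Mmp7. The 7 genes were chosen with earlier results of these data known, so these shares are no test of the set. The medians that follow count Mmp7 by both of its probes. The median difference over the members was 1.14 for the 4 probes and 0.40 for the 7, whereas over all tested probes it was -0.06 and -0.05.

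**Figure D1:**
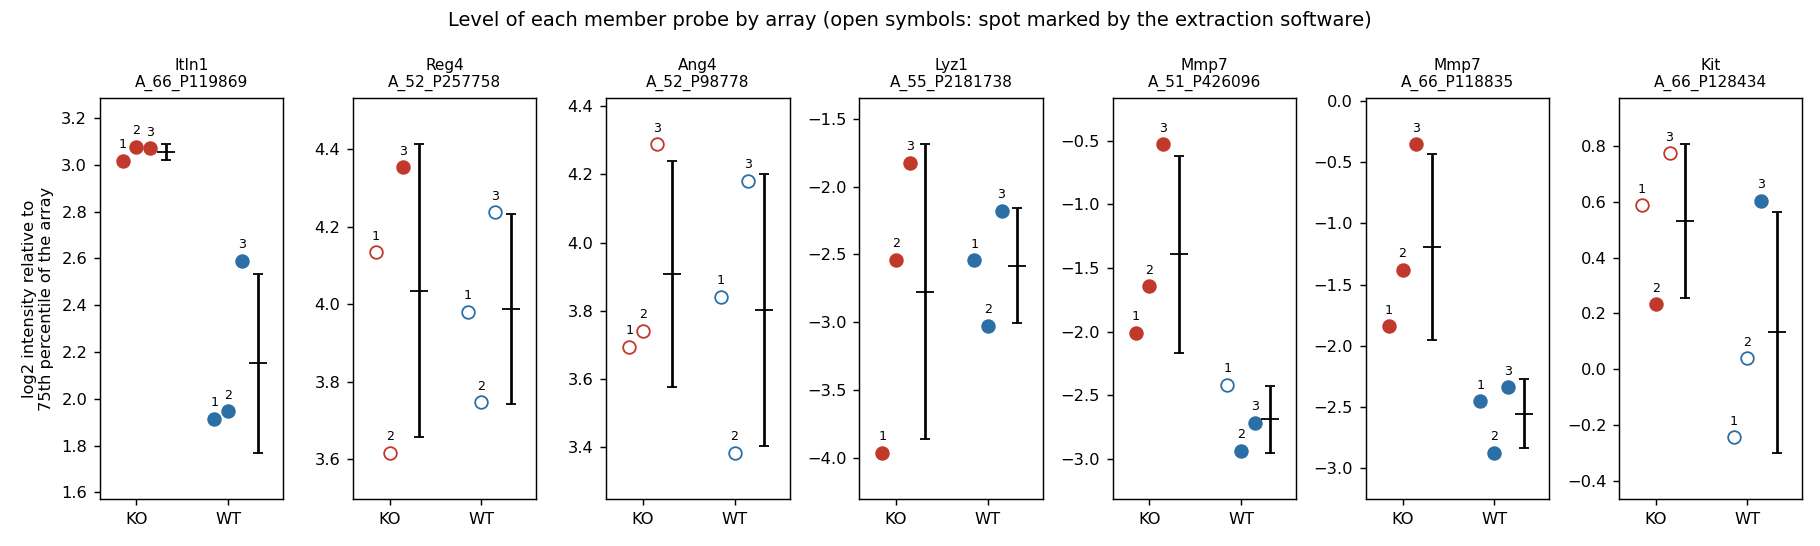
Level of each member probe (log2 intensity relative to the 75th percentile of the array, a separate scale in each panel) on the 3 knockout (KO, red) and 3 wild-type (WT, blue) arrays. Numbers beside points are replicates, open symbols are spots marked by the extraction software, and bars give the mean ± SD over the 3 arrays of a group, marked spots included. The knockout points lie above all wild-type points for Itln1 and both Mmp7 probes, and the groups overlap for the other 4 probes.

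Itln1 encodes intelectin-1, a secreted lectin that binds sugars on microbial surfaces and is made by goblet and Paneth cells. Its probe, A_66_P119869, had no marked spot and read 3.02, 3.08 and 3.07 in the knockout arrays, against 1.91, 1.95 and 2.59 in the wild-type arrays. The 3 knockout arrays were nearly equal, and wild-type 3 lay between them and the other two wild-type arrays. The mean was 3.05 ± 0.03 in knockout and 2.15 ± 0.38 in wild-type tissue (SD, n = 3 each). The difference was 0.90 ± 0.20 (SE), a ratio of 1.87, with a 95% interval of 0.44 to 1.37 on the log2 scale. It did not pass over all probes (limma, adjusted p = 0.212), and its unadjusted p ranked 399 of 33231 probes. Without wild-type 3 the difference was 1.12 and passed (limma, adjusted p = 0.0472), which makes Itln1 the 1 member called under any setting tried. The same array left out with marked spots kept gave no call. Over all settings with marked spots left out the difference lay between 0.77 and 1.12.

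The 250 bases before the RefSeq start of Itln1 are shown because its arrays separated by genotype (GRCm38.p6, chr1:171535295-171535544, minus strand). They are in lower case throughout because none of the 6 motifs searched was found in them. These motifs were TATAAA on the forward strand, and on both strands CTTTGAT, a core site of Wnt-responsive TCF factors, TGANTCA, a core site of AP-1, the E-box CAGCTG, its form CACCTG and its form CATCTG.
Itln1 promoter: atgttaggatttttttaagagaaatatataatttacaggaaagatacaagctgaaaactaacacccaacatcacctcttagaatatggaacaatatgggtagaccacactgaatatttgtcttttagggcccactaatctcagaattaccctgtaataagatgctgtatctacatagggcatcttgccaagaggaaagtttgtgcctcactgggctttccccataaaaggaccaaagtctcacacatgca
Among 32851 RefSeq promoter windows of the same length, 7.59% held TATAAA, 3.21% CTTTGAT, 6.75% TGANTCA, 13.0% CAGCTG, 17.2% CACCTG and 14.4% CATCTG. A match or its absence describes these letters only.

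Mmp7 encodes matrilysin, a metalloprotease that in mouse Paneth cells cuts alpha-defensin precursors into their active forms. Probe A_66_P118835, with no marked spot, read -1.84, -1.38 and -0.35 in the knockout arrays and -2.46, -2.88 and -2.34 in the wild-type arrays. Probe A_51_P426096 read -2.01, -1.64 and -0.53 in the knockout arrays and -2.42, -2.94 and -2.71 in the wild-type arrays, where the spot of wild-type 1 was marked. On both probes knockout 3 was the highest array and the groups did not overlap, with the nearest arrays 0.50 and 0.41 apart. The 2 probes followed each other, and the first read between 0.04 lower and 0.37 higher than the second on the same array.

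The difference of the first Mmp7 probe was 1.37 ± 0.37 (SE), a ratio of 2.58, with a 95% interval of 0.49 to 2.24 on the log2 scale. It did not pass (limma, adjusted p = 0.296). The group means were -1.19 ± 0.76 in knockout and -2.56 ± 0.28 in wild-type tissue (SD, n = 3 each), so most of the spread lay within the knockout mice. The second probe gave 1.43 ± 0.43 (SE, knockout n = 3, wild-type n = 2, limma adjusted p = 0.35) without its marked spot and 1.30 ± 0.37 with it (limma, adjusted p = 0.327). Knockout 3 carried much of the size of this difference. Without it the fitted difference of the first probe was 0.95. Among the 4 mice with neighbouring animal numbers in their labels, knockout 1 and 2 and wild-type 1 and 2, the difference was 1.05 for this probe and 1.12 for Itln1. Between knockout 3 and wild-type 3, with 1 mouse each, it was 1.99 for this probe and 0.48 for Itln1, so the sizes varied between mice.

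RefSeq gives Mmp7 a pair of starts, and the 250 bases before the upstream one are shown because both of its probes separated the genotypes (GRCm38.p6, chr9:7691840-7692089, plus strand). Capitals mark motif matches. TATAAA stands at -123 to -118 and again at -26 to -21, and TGANTCA at -63 to -57, counted back from the start with -1 as the base before it. The 250 bases before the other start, which are not shown, hold CTTTGAT on the reverse strand at -247 to -241 and CACCTG at -164 to -159.
Mmp7 promoter: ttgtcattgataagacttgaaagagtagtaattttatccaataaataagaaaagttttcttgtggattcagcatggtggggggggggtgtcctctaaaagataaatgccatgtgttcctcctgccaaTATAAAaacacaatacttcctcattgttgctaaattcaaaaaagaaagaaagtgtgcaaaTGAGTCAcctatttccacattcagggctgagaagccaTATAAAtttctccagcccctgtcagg

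**Figure D2:**
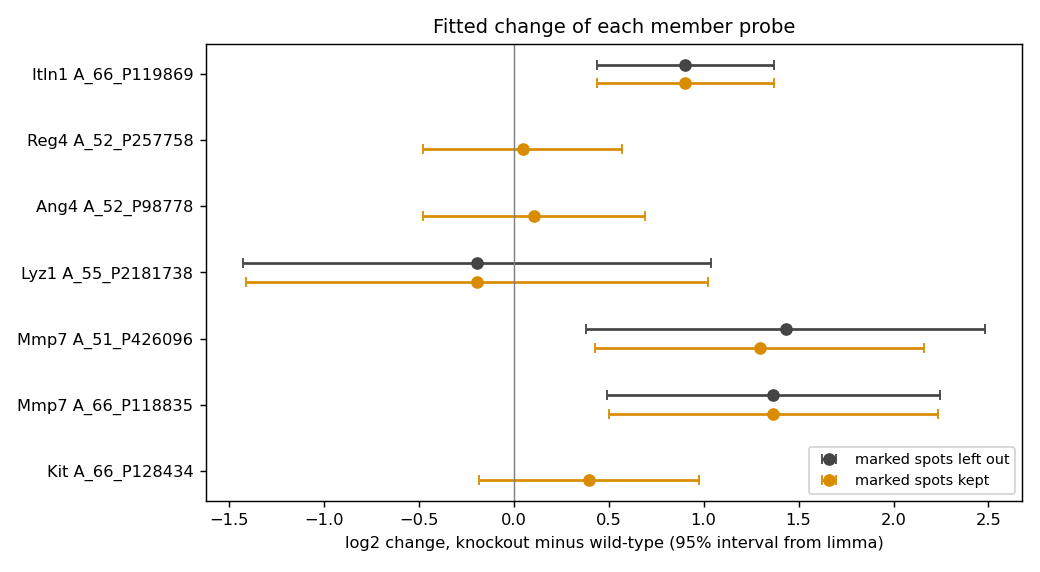
Fitted difference of each member probe (log2, knockout minus wild-type, bars give the 95% interval from limma) with marked spots left out (dark) and kept (orange). The intervals of Itln1 and both Mmp7 probes lie above 0, and those of Reg4, Ang4, Lyz1 and Kit include it. Reg4, Ang4 and Kit have no value with marked spots left out.

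Reg4 encodes a secreted C-type lectin and is the gene used to mark deep crypt secretory cells in the mouse colon. Its spot was marked on 5 of the 6 arrays, all but knockout 3. The readings were 4.13, 3.62 and 4.35 in the knockout arrays and 3.98, 3.75 and 4.24 in the wild-type arrays. The groups overlapped fully, with knockout 2 the lowest and knockout 3 the highest of the 6. With marked spots kept the difference was 0.05 ± 0.22 (SE, limma adjusted p = 0.966), and its 95% interval spanned ratios from 0.717 to 1.49. A rise or a fall of a size within that interval thus remains possible.

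Ang4 encodes angiogenin-4, a ribonuclease with antimicrobial activity released by mouse Paneth and goblet cells. Its spot was marked on all 6 arrays, and it belongs to a family of similar angiogenin genes, so signal shared between them cannot be told apart. It read 3.69, 3.74 and 4.29 in the knockout arrays and 3.84, 3.38 and 4.18 in the wild-type arrays. As for Reg4, replicate 3 was the highest array of each group and the groups overlapped. The difference was 0.11 ± 0.25 (SE, limma adjusted p = 0.923), with a 95% interval spanning ratios from 0.717 to 1.62. Its sign was not stable, and with another background correction it was -0.13. Marked spots were frequent among bright probes in general, 30.3% of spots for probes with a mean above 3 against 10.9% over all probes.

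Lyz1 encodes the lysozyme of Paneth cells, an enzyme that breaks bacterial cell walls. It read -3.96, -2.54 and -1.82 in the knockout arrays, against -2.54, -3.03 and -2.18 in the wild-type arrays, with no marked spot. Knockout 1 was the lowest and knockout 3 the highest of the 6, so the knockout arrays spanned the whole range of 2.14 and enclosed the wild-type arrays. The mean was -2.78 ± 1.09 in knockout and -2.58 ± 0.42 in wild-type tissue (SD, n = 3 each). The difference was -0.19 ± 0.52 (SE, limma adjusted p = 0.929), with a 95% interval of -1.42 to 1.04. Without knockout 1 it turned to 0.40.

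Lyz2, the lysozyme gene of macrophages, lies next to Lyz1 on chromosome 10. It read -5.88, -4.80 and -4.10 in the knockout arrays and -4.79, -5.02 and -4.57 in the wild-type arrays. Its difference was -0.13 ± 0.42 (SE, limma adjusted p = 0.942), and knockout 1 and 3 were again the lowest and the highest array. The 250 bases before each start are shown as the promoters of neighbouring genes whose probes were lowest and highest on the same arrays (GRCm38.p6, minus strand, chr10:117292869-117293118 for Lyz1 and chr10:117282273-117282522 for Lyz2). None of the 6 motifs was found in either.
Lyz1 promoter: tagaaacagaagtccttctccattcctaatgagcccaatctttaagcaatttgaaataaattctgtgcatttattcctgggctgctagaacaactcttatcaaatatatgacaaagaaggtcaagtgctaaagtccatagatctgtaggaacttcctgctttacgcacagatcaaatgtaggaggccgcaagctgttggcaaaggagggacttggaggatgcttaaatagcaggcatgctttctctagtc
Lyz2 promoter: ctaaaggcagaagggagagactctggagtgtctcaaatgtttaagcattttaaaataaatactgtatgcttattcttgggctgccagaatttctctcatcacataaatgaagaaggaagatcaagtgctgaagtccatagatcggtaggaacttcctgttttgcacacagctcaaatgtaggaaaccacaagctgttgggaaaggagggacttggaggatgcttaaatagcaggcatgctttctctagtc
The windows were identical at 200 of 248 aligned bases, or 80.6%, with 4 gap columns. The genes themselves are near copies, so signal shared between the 2 probes cannot be told apart. Of 12 listed markers of macrophages and other myeloid cells, 11 were tested and 0 were called, and their summed level was 2281% to 2462% of the 75th percentile on the knockout arrays and 2126% to 2488% on the wild-type arrays. Itgam alone made up 74.0% to 79.3% of that sum, and the rest came to 511% to 528% on the knockout arrays and 540% to 553% on the wild-type arrays. The complement genes C1qa, C1qb and C1qc did not move one way, with differences of 0.78 ± 0.30, -0.53 ± 0.13 and -1.15 ± 0.44, and none passed.

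Alpha-defensins are the peptides that mouse Paneth cells store beside lysozyme and that matrilysin processes. The array holds 22 probes for 18 alpha-defensin genes and pseudogenes, a family of near-identical sequences whose probes can share signal, so each value is uncertain. Of these, 13 probes were well above background on at least 3 arrays and were tested, and 0 were called. At an unadjusted p under 0.05, 2 of the 13 were lower in knockout tissue, against 7.25% of all tested probes, Defa25 with a difference of -0.60 ± 0.12 (limma, adjusted p = 0.192) and 1 probe of Defa2 with -0.87 ± 0.25 (limma, adjusted p = 0.322). The other Defa2 probe gave 0.31 ± 0.84, so the value of Defa2 depends on the probe.

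What stood out in the defensins was the spread between mice of the same genotype. The account below keeps to the 8 probes that were well above background on all 6 arrays. The other 5 tested probes were above it on 3 to 5 arrays, so the filter itself bears on their order, and 9 probes were not tested. The 8 probes spanned between 1.22 and 4.78 log2 units over the 6 arrays. Defa3 by probe A_55_P2064913 read -5.53, -1.84 and -0.83 in the knockout arrays and -5.12, -5.61 and -0.96 in the wild-type arrays. Defa23 by probe A_55_P2104071 read -3.01, -1.02 and -0.08 in the knockout arrays and -2.62, -3.16 and 0.15 in the wild-type arrays. Both were thus high in knockout 2, knockout 3 and wild-type 3 and low in knockout 1, wild-type 1 and wild-type 2, an order that crosses the genotypes. The mean of the 8 probes was -3.97, -2.93 and -2.18 in the knockout arrays and -3.74, -3.87 and -1.85 in the wild-type arrays. In 7 of the 8 probes, the exception being a Defa2 probe, knockout 2, knockout 3 and wild-type 3 were the highest 3 arrays. In Lyz1 they were as well, though there knockout 2 and wild-type 1 were nearly equal. These 3 arrays were picked from the values themselves and are no group of the study. The defensin probes can share signal, so the 7 are not separate observations. The share of all tested probes with this order is not given here. Mmp7 did not share that order, since its level in wild-type 3 stayed with the other wild-type arrays.

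**Figure D3:**
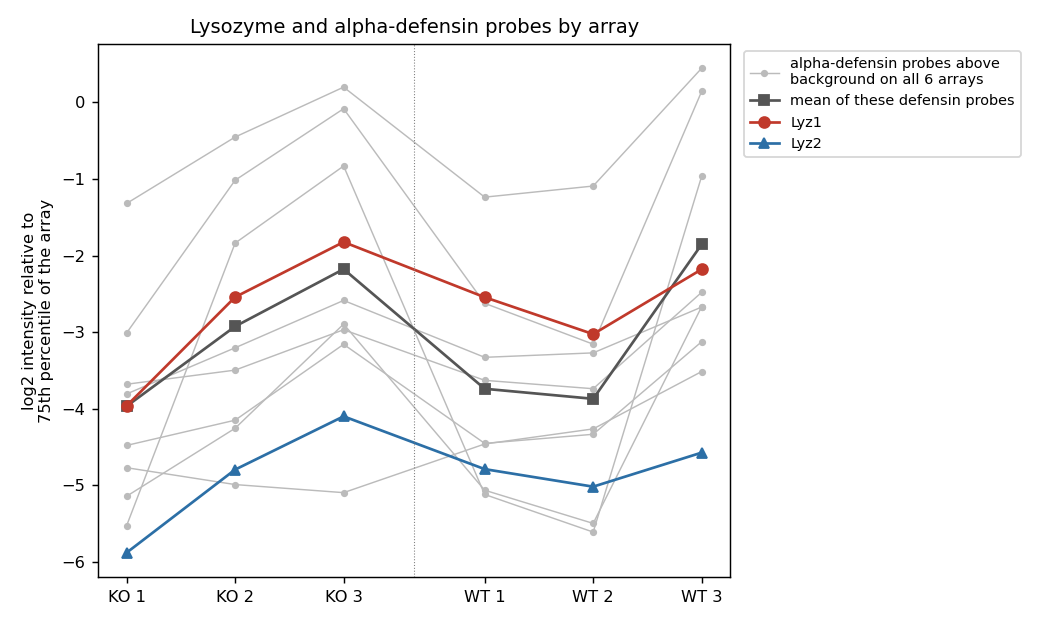
Levels of Lyz1 (red), Lyz2 (blue), the 8 alpha-defensin probes above background on all 6 arrays (grey) and their mean (dark squares) on each knockout (KO) and wild-type (WT) array, as log2 intensity relative to the 75th percentile of the array. The defensin mean is -3.97 in knockout 1 and -2.18 in knockout 3, and -3.74 in wild-type 1 and -1.85 in wild-type 3, and Lyz1 and Lyz2 are lowest in knockout 1 and highest in knockout 3.

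Alpha-defensins are products of the small intestine rather than the colon. Of 12 listed genes of small intestinal epithelium, 11 have a probe and 9 were above background on at least 3 arrays. Their summed level was 1661% to 2211% of the 75th percentile on the knockout arrays and 1689% to 2042% on the wild-type arrays, but Fabp2, a fatty acid-binding protein gene, made up 74.1% to 83.9% of it. Without Fabp2 the sums were 280% to 573% on the knockout arrays and 273% to 402% on the wild-type arrays. Lct was not above background on any array, and 0 of the 9 tested, which include Defa24, were called. Apob, the gene of a lipoprotein protein, had a difference of -0.92 ± 0.21 (limma, adjusted p = 0.235) and Rbp2, a retinol-binding protein gene, of 0.63 ± 0.21 (limma, adjusted p = 0.376), both without overlap between the groups. Their part in the levels of the Paneth cell genes was not tested.

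Kit encodes the receptor tyrosine kinase for stem cell factor and marks colonic deep crypt secretory cells, but also mast cells and the interstitial cells of Cajal. Its spot was marked on 4 arrays and free of marks on knockout 2 and wild-type 3. It read 0.59, 0.23 and 0.77 in the knockout arrays and -0.24, 0.04 and 0.60 in the wild-type arrays. The groups overlapped, because wild-type 3 lay above knockout 1 and 2. The difference was 0.40 ± 0.25 (SE, marked spots kept, limma adjusted p = 0.638), with a 95% interval of -0.18 to 0.98. Kitl, the gene of its ligand, was marked on all 6 arrays and differed by 0.17 ± 0.15 (limma, adjusted p = 0.758).

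Some mast cell genes rose in the knockout tissue. Of 11 listed mast cell markers, a list chosen with earlier results of these data known, 10 have a probe and 9 were tested. Of the 9, 2 rose, against 0.208% of all tested probes called in either direction. They were the mast cell protease genes Mcpt2 by 2.10 ± 0.13 (knockout n = 2, limma adjusted p = 0.00548) and Mcpt4 by 2.36 ± 0.20 (limma, adjusted p = 0.00876). Cpa3, the carboxypeptidase A gene of these cells, had a difference of 2.14 ± 0.28 (limma, adjusted p = 0.0518). Its probe was above background on only 4 arrays, so the filter itself bears on that difference and its size is uncertain. Mcpt1 had a difference of 2.46 ± 0.43 (knockout n = 2, limma adjusted p = 0.164). At an unadjusted p under 0.05, 5 of the 9 were higher, against 3.27% of all tested probes, with a median difference of 0.69 over the list. The list was chosen with earlier results known, so these shares are no test of it. The summed level of the list was 167% to 197% of the 75th percentile on the knockout arrays and 77.7% to 103% on the wild-type arrays, with no overlap. Tpsb2 made up 16.5% to 55.3% of it, and the rest came to 131% to 156% and 39.4% to 63.6%. In that rest Mcpt1, Mcpt4 and Mcpt2 were the brightest genes in knockout tissue. They averaged -0.76, -1.22 and -2.35 there, against -3.21, -3.58 and -4.61 in wild-type tissue. The sum thus mainly reflects these protease genes and does not show a rise of the whole list. Cma1 and Tpsb2, genes of a mast cell chymase and a tryptase, had differences of -0.60 ± 0.31 and -0.25 ± 0.17 and did not pass. Of 6 listed markers of interstitial cells of Cajal 4 were tested and 0 were called, and their summed level was 1076% to 1202% on the knockout arrays and 1199% to 1318% on the wild-type arrays, of which Thbs4 made up 60.2% to 64.3%. The part of either cell type in the level of Kit was not tested.

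**Figure D4:**
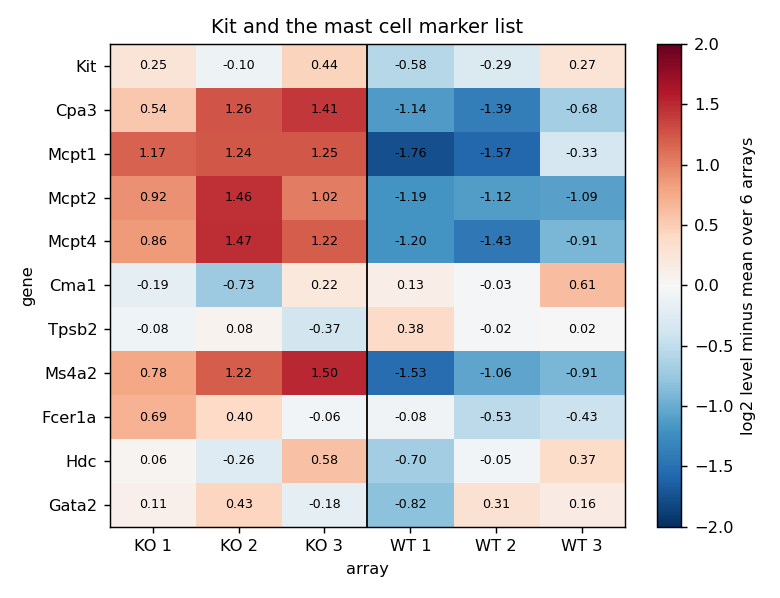
Level of Kit and of the 10 mast cell markers with a probe on each knockout (KO) and wild-type (WT) array, as log2 level minus the mean of the gene over the 6 arrays, with marked spots kept. Cpa3, Mcpt1, Mcpt2, Mcpt4, Ms4a2 and Fcer1a are above their wild-type levels on all knockout arrays, although Ms4a2 was above background on only 2 arrays, whereas for Kit wild-type 3 lies above knockout 1 and 2.

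The other genes of these cells were compared from 5 lists that leave out the members. Of 30 listed other Paneth cell genes 14 were tested and 0 were called, with a median difference of 0.08. Nod2, a sensor of bacterial cell wall fragments, read -2.94, -2.63 and -3.53 in the knockout arrays and -4.21, -4.53 and -3.73 in the wild-type arrays. Its groups did not overlap and its difference was 1.12 ± 0.28 (limma, adjusted p = 0.267). Guca2b, the uroguanylin gene, had a difference of 0.40 ± 0.14 (knockout n = 2), Clps, the colipase gene, of 0.37 ± 0.26 and Mptx1, a mucosal pentraxin gene, of -0.20 ± 0.16 (n = 2 and 2). None of these passed.

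Of 24 listed genes of deep crypt secretory and goblet cells 12 were tested and 0 were called, with a median difference of 0.04. Agr3, a disulfide isomerase gene related to the goblet cell gene Agr2, read -3.01, -3.06 and -3.12 in the knockout arrays and -4.36, -4.06 and -3.62 in the wild-type arrays. The groups did not overlap, and the difference of 0.95 ± 0.20 did not pass (limma, adjusted p = 0.197). Muc2, the gene of the main secreted mucin, had a difference of 0.16 ± 0.12, Egf of -0.26 ± 0.15 and the Notch ligand gene Dll4 of -0.25 ± 0.26. Retnlb, an antibacterial goblet cell product, had a difference of 0.11 ± 0.21 (wild-type n = 2, limma adjusted p = 0.9).

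Of 18 listed regulators of the secretory lineage 17 were tested, 0 were called, and 0 had an unadjusted p under 0.05 (limma). The median difference was 0.04. Spdef, the transcription factor gene of goblet and Paneth cell maturation, had a difference of 0.26 ± 0.17 (limma, adjusted p = 0.645). Fzd5, the Wnt receptor gene needed for Paneth cell maturation in mice, had one of 0.37 ± 0.16 (limma, adjusted p = 0.475), Hes1, a Notch target, of 0.25 ± 0.16 (knockout n = 2), and Creb3l1 of 0.14 ± 0.12.

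Itln1, Ang4 and Retnlb are known to respond to type 2 cytokines in mouse gut epithelium. Of 23 listed genes of this response 12 were tested and 0 were called, with a median difference of 0.08. Il13, the gene of the cytokine that drives the response, read -6.24, -6.49 and -6.21 in the knockout arrays and -5.97, -5.68 and -6.05 in the wild-type arrays, with a difference of -0.42 ± 0.15 that did not pass (limma, adjusted p = 0.408). Its probe was above background on only 4 arrays. Il25 and Il33, cytokine genes upstream of it, had differences of -0.24 ± 0.11 and -0.38 ± 0.28, and the receptor gene Il4ra had one of 0.14 ± 0.12.

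Of 26 genes whose products act with the members or are closely related to them 15 were tested and 0 were called, with a median difference of 0.01. Pla2g5, a secreted phospholipase A2 gene of the same family as Pla2g2a, read 0.25, 0.19 and 0.08 in the knockout arrays and 1.22, 1.35 and 0.74 in the wild-type arrays. All knockout arrays lay below all wild-type arrays, and the difference was -0.93 ± 0.18 (limma, adjusted p = 0.164). Timp3, an inhibitor of metalloproteases, had a difference of -0.59 ± 0.35, the metalloprotease gene Mmp2 of 0.46 ± 0.31 and Reg2, a relative of Reg4, of 1.09 ± 0.95. Mmp2 and Reg2 were above background on only 4 arrays, so the size of either difference is uncertain. Rnh1, the inhibitor of angiogenins and other ribonucleases, was tested only with marked spots kept and differed by 0.15 ± 0.13 (limma, adjusted p = 0.746). With marked spots kept, the 5 lists had 20, 23, 18, 19 and 19 tested genes, and 0 were called in each. At an unadjusted p under 0.05, 3 of the 20 Paneth cell genes and 3 of the 23 deep crypt secretory and goblet cell genes were then higher, against 3.31% of all probes. At that level 1 type 2 response gene and 1 gene of the last list were lower, against 6.75% of all probes.

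For each member whose brightest probe spanned at least 1 log2 unit and had no marked spot, the genes with the most similar levels over the 6 arrays were sought among 13223 genes, after centring each gene on its mean. Likeness was computed on the readings as given, and Rtl6, Ablim3, Ctla2a and Lims2 were each above background on only 5 of the 6 arrays, so their values are approximate. The closest to Itln1 were Agr3, with a root mean square difference of 0.096 log2 units, and Rtl6, with 0.109. Those closest to Lyz1 were Ablim3, at 0.0933, and Ctla2a, at 0.122. For Mmp7 they were Slc26a1, at 0.225, and Lims2, at 0.252. Over only 6 arrays that share 1 slide, many genes can have similar levels, and these values describe likeness alone.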

How the data were processed

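RNA of colonic epithelium was measured on 1 Agilent one-colour array per mouse, for 3 miR-31 knockout and 3 wild-type mice. The deposited intensity of each spot is background-subtracted by Agilent Feature Extraction, version 11.5.1.1 per the file headers and 10.7 per the submitters' processing notes, and is not scaled between arrays. A deposited series table, with column medians of 259, 228 and 241 for knockout and 231, 234 and 247 for wild-type mice, repeats these intensities on a linear scale, with 99.7% of values within 0.01 log2 of the scanner values.

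Each log2 intensity was set against the 75th percentile of its array, over 59305 non-control spots. Spots marked as non-uniform or as outliers were left out (4.95% to 17.3% per array) and repeated spots averaged. The reading with marked spots kept was chosen after the data were seen. Probes well above background on at least 3 arrays and unmarked on at least 2 per group were fitted with limma 3.58.1 (R 4.3.3), knockout minus wild-type without covariates, with Benjamini-Hochberg adjustment over all tested probes. Each p-value sets a mean difference against the spread between mice of the same group, which limma moderates toward that of all tested probes. With 3 mice per group, or 2 where a marked spot was left out, the precision is limited.

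Gene names came from RefSeq accessions (GRCm38.p6), which matched 33767 of 56605 probes. The array design names mm9, so coordinates are those of the RefSeq tables. The 7 genes and all lists were chosen with earlier results of these data known. Genes named are every member, up to 4 genes per list with the smallest unadjusted p, Lyz2, Kitl, Rnh1, Retnlb and Spdef, and the 2 genes most like a member in level. The defensin probes and arrays described singly, and other markers named as examples (Epcam, Krt8, Car1, Acta2, Tagln, Myh11, Des, Lct, Fabp2, Apob, Rbp2, Itgam, Thbs4, Cma1, Tpsb2, Ms4a2, Fcer1a and the C1q genes), were chosen after their values were seen. Alternatives covered background correction, normalization, filters, variance model, weights, probe summary, slide column, animal number, the series table and each array left out.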

Additional observations from a re-analysis of the deposited data

How the results depend on the processing

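Of 120 results of single member probes under an alternative, 110 kept their direction and their side of the threshold, 1 came to pass it and 9 turned in sign. Several alternatives changed only the filter, the variance model or the probe summary. These left most of the estimates as they were, so the sign could not turn and the 110 is no measure of stability. No result lost a call, since none of the members was called to begin with. Itln1 came to pass without wild-type replicate 3 (log2 difference 1.12, limma adjusted p = 0.0472), though not with marked spots kept, so the number of member probes called was 0 to 1 over the fits that left out 1 array. Both Mmp7 probes, Itln1 and Kit were higher in knockout tissue under every alternative run, with differences of 0.95 to 1.74 for the Mmp7 probes, 0.77 to 1.12 for Itln1 and 0.21 to 0.63 for Kit. The groups of Itln1 and Mmp7 do not overlap, so leaving out 1 array could change the size of their differences but not the sign. The Ang4 difference turned to -0.13 with normexp and the Lyz1 difference to 0.013 with array weights. With 1 array left out, differences ran from -0.11 to 0.26 for Reg4, from -0.10 to 0.30 for Ang4 and from -0.67 to 0.40 for Lyz1. The 3 member probes past an unadjusted p of 0.05 became 2 to 3, as did those whose groups do not overlap. Each fall to 2 came where 3 member probes were tested in place of 4, because 1 Mmp7 probe left the test or was merged with the other. Leaving out an array cannot make separate groups overlap, so these ranges do not measure stability. Over all probes, 69 were called, against 125 with normexp, 128 with trend and robust variance, 130 with array weights, 44 without the filter on dim probes and 33 with probes above background on all 6 arrays. That number lay between 5, without knockout replicate 2, and 104, without knockout replicate 3, and was 20 without knockout replicate 1 and 24 and 31 without wild-type replicates 1 and 2. The cause was not tested. Of the calls 71.0% were higher in knockout tissue, against 79.7% with quantile normalization and 73.6% with normexp and 84.1% with dim probes tested too. With 1 array left out that share ran from 50% (knockout replicate 3) to 96.8% (wild-type replicate 2). Normexp used median spot signals. No paired analysis was possible because the labels pair no knockout mouse with a wild-type mouse. All 6 arrays share 1 slide and 1 scan. Marked spots limit Reg4, Ang4 and Kit, which rest on spots that the extraction software had set aside.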
